A study of Mus musculus with 8 samples.

Results

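The genes described here bring glucose into muscle fibres, trap it there or set how much of its carrier reaches the surface: 4 transporters (Slc2a1, Slc2a3, Slc2a4, Slc2a12), 2 hexokinases (Hk1, Hk2), 2 brakes on transporter traffic (Tbc1d1, Tbc1d4) and 2 alpha-arrestins (Txnip, Arrdc4). They were chosen by name for this shared role and not by a rule on their values, but with earlier results of these data known. All 10 were among the 22271 genes measured. The samples were soleus muscle of male C57BL/6J mice, 14 weeks old at sampling, which had started at 8 weeks of age and ate High-fat diet 32. For 6 weeks the animals of 1 group received Porphyromonas gingivalis, a bacterium of human gum disease, by feeding needle in 100 µL of saline, and the controls received saline alone. High-fat feeding was common to both groups, and no group on another diet was analysed here. Each group holds 4 arrays. The labels do not tie every array to a mouse of its own, so a p-value here speaks of the spread among these arrays, which may be partly technical. The comparison asks whether oral P. gingivalis changed muscle gene expression.

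Glucose crosses the muscle membrane through carriers of the Slc2a (GLUT) family, chiefly GLUT4, encoded by Slc2a4, which waits in internal vesicles until insulin or contraction sends it to the surface. The Rab GTPase-activating proteins TBC1D1 and TBC1D4 hold those vesicles back until kinases phosphorylate them, and hexokinase then phosphorylates the sugar so that it cannot leave. The alpha-arrestins TXNIP and ARRDC4 restrain uptake by driving carriers off the surface, and their genes are classical targets of the glucose-sensing factors MondoA and ChREBP.

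Every level below is the log2 of an array's processed signal minus the log2 of that array's 75th percentile, and every difference is P. gingivalis minus saline on this log2 scale. Probes bind with different strength, so levels are compared between arrays for 1 probe and never between probes or genes. Groups follow the sample records. The columns of the authors' deposited table equal the arrays of the opposite group, so all directions would turn if that table were right. The saline arrays filled 1 side of the single slide and the P. gingivalis arrays the other, so side and group cannot be told apart. The 75th percentile of the signal ran from 648 to 764 and was lowest in P. gingivalis 2, the single array that its file header marks for evaluation. Saline arrays had 30177 to 34075 probes well above background and P. gingivalis arrays 34852 to 35365. The markers bore out skeletal muscle, since all 10 fast-fibre and all 8 slow-fibre genes were well above background on every array. They do not tell soleus from another muscle. A whole-muscle sample holds several cell types, so fewer cells of a type and less RNA per cell cannot be told apart.

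None of the 10 members passed an adjusted p of 0.05 in limma, against a background of 0.117% of all genes (26 of 22271). Those 26 split into 8 higher and 18 lower, a split that turned to 138 and 59 under quantile normalization and to 58 and 33 under median centring. Txnip stood farthest from 0, with a log2 difference of 0.42, and its adjusted p of 0.0987 was the smallest among the members. Slc2a12 was next by unadjusted p, with a difference of -0.18. The groups did not overlap for these 2 members, 1 higher and 1 lower, beside 13.4% of all genes (7.34% higher, 6.10% lower). An unadjusted p under 0.05 was likewise reached by 2 members, beside 19.7% of all genes, so both shares lie close to the background for so few genes. Differences were above 0 in 7 members and below 0 in 3, with a median of 0.05, beside a median of -0.01 over all genes and 47.7% of all genes above 0. The sign of Hk1 among the 7 turned under quantile normalization. The median size of the difference was 0.15 in the members and 0.13 in all genes.

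**Figure D1:**
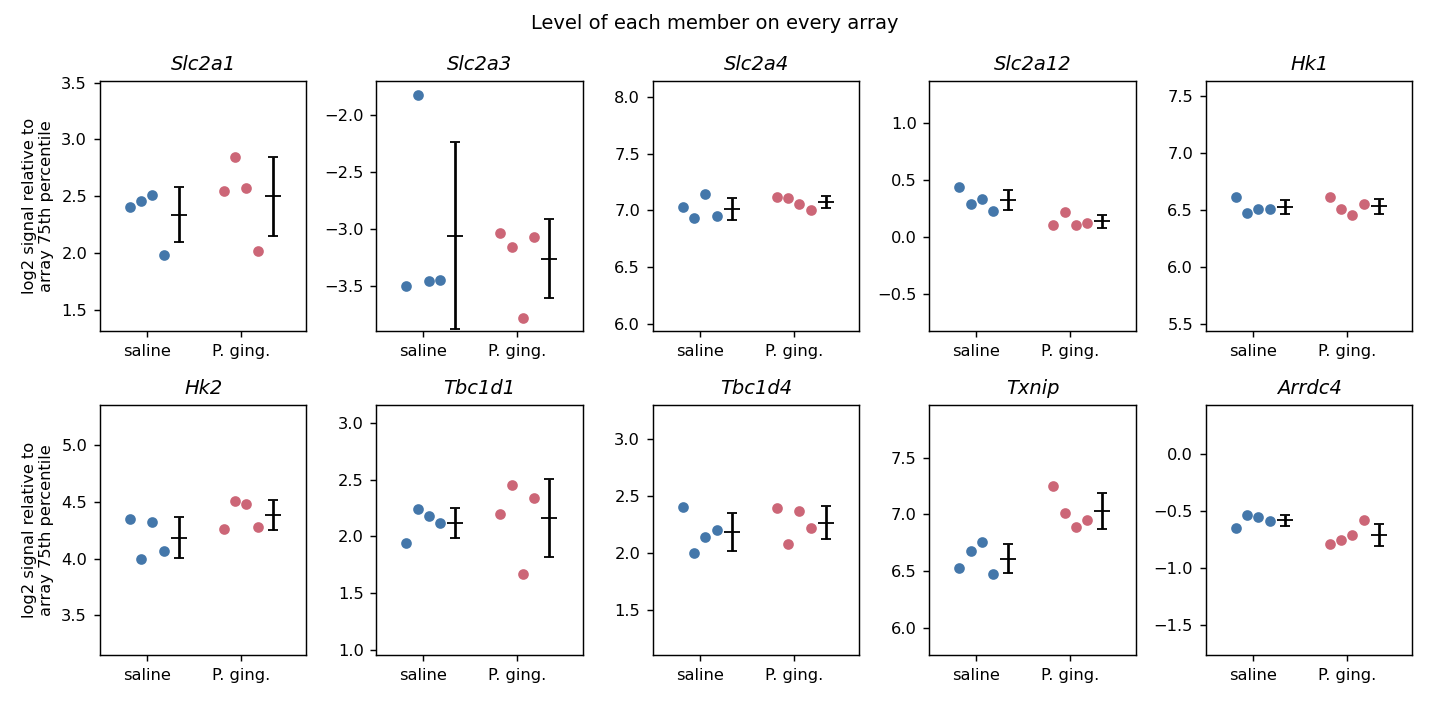
Level of each member on each array, as log2 signal relative to the array's 75th percentile, with saline in blue, P. gingivalis in red and replicates 1 to 4 from left to right. Horizontal ticks are group means and bars are SD (n = 4); each panel has its own axis, Txnip and Slc2a12 are the members without overlap between groups, and saline 2 stands alone for Slc2a3 at -1.82.

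Slc2a1 encodes GLUT1, the carrier of basal uptake, which endothelium and nerve sheath also express. Its probe (mm9 chr4:118809864-118809923, plus strand) read 2.40, 2.46, 2.51 and 1.98 on the saline arrays and 2.55, 2.85, 2.58 and 2.02 on the P. gingivalis arrays. Saline 4 and P. gingivalis 4 were the lowest of their groups, and the groups overlapped. The difference was 0.16 ± 0.19 (SE, n = 4 and 4), with an adjusted p of 0.664 in limma. It ran from 0.04 without saline 4 to 0.32 without P. gingivalis 4, so the size of this difference rests on single arrays. Markers of endothelium, as a mean over 10 genes of each gene's deviation from its mean over all arrays, lay between 0.03 and 0.15 on the saline arrays and between -0.22 and 0.12 on the P. gingivalis arrays. Of these 10 genes 7 were lower and 3 higher in P. gingivalis, none was at 0, and their part in the Slc2a1 values was not tested.

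Slc2a3 encodes GLUT3, the high-affinity carrier of neurons and of blood and immune cells. Its measured probe (mm9 chr6:122678075-122678134, minus strand) read -3.50, -1.82, -3.46 and -3.45 on the saline arrays. The P. gingivalis arrays read -3.04, -3.16, -3.78 and -3.07. Saline 2 lay far above every other array of either group. The difference of -0.20 ± 0.39 (SE, n = 4 and 4; limma adjusted p = 0.802) turned to 0.21 without saline 2. A second Slc2a3 probe was well above background on 0 arrays. In saline 2 the mean deviation of macrophage markers was 0.69, the highest of all arrays, and that of neutrophil markers was 0.93. Saline 1 had the same neutrophil value, 0.93, with Slc2a3 at -3.50. Over the groups the 7 measured of 9 neutrophil markers were all lower in P. gingivalis, with -0.13 to 0.93 in saline and -0.56 to -0.37 in P. gingivalis. Retnlg and Ltf were the unmeasured ones, and 7 of the 8 macrophage markers were lower (-0.65 to 0.69 in saline, -0.54 to 0.15 in P. gingivalis). None of the measured markers was at 0, and their part in the Slc2a3 values was not tested.

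Slc2a4, the gene of the insulin-responsive carrier GLUT4, varied little. Its main probe (mm9 chr11:69756073-69756132, minus strand) read 7.03, 6.93, 7.14 and 6.95 on the saline arrays and 7.12, 7.11, 7.06 and 7.01 on the P. gingivalis arrays. The saline range enclosed all 4 P. gingivalis arrays. The difference was 0.06 ± 0.06 (SE, n = 4 and 4; limma adjusted p = 0.631), with a 95% interval from -0.09 to 0.21. It stayed above 0 in the 18 alternatives, from 0.01 with quantile normalization to 0.15 with the mean of its probes. A second probe under the Slc2a4 name (mm9 chr11:69757309-69757368), designed on a cDNA clone, read -2.07, -2.12, -2.02 and -2.21 in saline and -1.73, -1.65, -2.09 and -1.97 in P. gingivalis. On this second probe P. gingivalis 3 fell inside the saline range while the other three P. gingivalis arrays lay above it. Its difference was 0.24 ± 0.11 (SE, n = 4 and 4), with an unadjusted p of 0.0514 and an adjusted p of 0.246 in limma over 33748 probes. In the authors' deposited table, with its groups exchanged, the Slc2a4 probes stand at -0.09 (adjusted p = 0.396) and -0.33 (adjusted p = 0.0995).

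Slc2a12 encodes GLUT12, a further carrier of muscle and fat. Its main probe (mm9 chr10:22424022-22424081, plus strand) read 0.44, 0.29, 0.34 and 0.23 on the saline arrays and 0.11, 0.22, 0.11 and 0.12 on the P. gingivalis arrays. The groups did not overlap, but P. gingivalis 2 lay just under saline 4 and away from the 3 arrays of its own group. The difference was -0.18 ± 0.06 (SE, n = 4 and 4), 1.14-fold lower, with an unadjusted p of 0.0188 and an adjusted p of 0.173 in limma. A second Slc2a12 probe a short way upstream (mm9 chr10:22423536-22423595) read 0.39, 0.18, 0.21 and 0.12 in saline and 0.02, 0.23, 0.26 and 0.35 in P. gingivalis. It overlapped throughout, with a difference of -0.0071 ± 0.09 (SE; limma adjusted p = 0.972). The 2 probes therefore do not give the same picture. Because the gene is its probe of highest mean signal, leaving out saline 2, saline 3 or saline 4 switched Slc2a12 to this second probe, and the gene's difference went to -0.02, -0.01 and -0.04. Another probe, far upstream, was well above background on saline 1 and saline 2 only. In the authors' deposited table, with its groups exchanged, the main probe stands at 0.27 (adjusted p = 0.0651) and the second at 0.07 (adjusted p = 0.671).

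Hk1 encodes the constitutive hexokinase that binds mitochondria. Its main probe (mm9 chr10:61731230-61731288, minus strand) read 6.61, 6.47, 6.51 and 6.51 on the saline arrays and 6.61, 6.51, 6.45 and 6.55 on the P. gingivalis arrays. The ranges lay almost on top of each other. The difference was 0.0054 ± 0.06 (SE, n = 4 and 4; limma adjusted p = 0.968), with a 95% interval from -0.13 to 0.14. Further Hk1 probes at mm9 chr10:61731856-61731915 and chr10:61759854-61759913 gave -0.10 ± 0.07 and -0.13 ± 0.14 (SE), neither past the threshold.

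A further Hk1 probe joins stretches of the genome that lie 37569 bases apart from end to end (mm9 chr10:61778284-61815852, minus strand), so it reads a spliced transcript. It is shown because its reading in saline 2 stood apart from the other saline arrays:
Hk1 junction probe: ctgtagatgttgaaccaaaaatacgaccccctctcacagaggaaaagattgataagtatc
It was well above background on 1 saline array, saline 2, and on all 4 P. gingivalis arrays. It read -4.69, -2.16, -5.15 and -5.15 in saline and -4.51, -5.00, -4.27 and -4.57 in P. gingivalis. Without saline 2, every remaining saline array but saline 1 lay below the P. gingivalis arrays, and the fitted difference over all arrays was -0.30 ± 0.64 (SE; limma adjusted p = 0.816). Saline 2 is also the array where Slc2a3 was high and where macrophage and neutrophil markers were high, as given above, and their part in the Hk1 junction reading was not tested.

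Hk2 encodes the insulin-regulated hexokinase of skeletal muscle. Its single probe (mm9 chr6:82675056-82675115, minus strand) read 4.35, 3.996, 4.32 and 4.07 on the saline arrays and 4.26, 4.51, 4.48 and 4.28 on the P. gingivalis arrays. P. gingivalis 2 and 3 lay above every saline array, and the other P. gingivalis arrays fell within the saline range. The difference was 0.20 ± 0.11 (SE, n = 4 and 4; limma adjusted p = 0.349), and it stayed between 0.13 and 0.25 in all 18 alternatives run. Within an array, Hk2 minus Hk1 differed between the groups by 0.19 (exact permutation p = 0.200, 0.400 after Benjamini-Hochberg adjustment over 4 pairs of related members).

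Tbc1d1 and Tbc1d4 encode the Rab GTPase-activating proteins that keep GLUT4 vesicles inside. In mice Tbc1d1 is known to be more abundant in fast muscles and Tbc1d4 in slow ones. The main Tbc1d1 probe (mm9 chr5:64742581-64742640, plus strand) read 1.94, 2.25, 2.18 and 2.12 on the saline arrays and 2.20, 2.45, 1.67 and 2.33 on the P. gingivalis arrays. The lowest readings came from P. gingivalis 3 and saline 1, each the lowest of its group. These are also the arrays with the lowest fast-fibre markers, whose mean deviation was -0.46 in P. gingivalis 3 and -0.97 in saline 1 against -0.15 to 0.49 on the other arrays. Over the groups 9 of the 10 fast-fibre markers were higher in P. gingivalis (-0.97 to 0.30 in saline, -0.46 to 0.49 in P. gingivalis), none was at 0, and their part in the Tbc1d1 values was not tested. The difference was 0.04 ± 0.17 (SE, n = 4 and 4; limma adjusted p = 0.914), became 0.20 without P. gingivalis 3, and turned to -0.06 without P. gingivalis 2. Other Tbc1d1 probes gave 0.23 ± 0.34 and 0.14 ± 0.18 (SE).

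The main Tbc1d4 probe (mm9 chr14:101862191-101862249, minus strand) read 2.41, 2.005, 2.14 and 2.21 on the saline arrays and 2.40, 2.08, 2.37 and 2.22 on the P. gingivalis arrays. Saline 1 and P. gingivalis 3, low in Tbc1d1, were among the 3 highest arrays for Tbc1d4, together with P. gingivalis 1. The difference was 0.08 ± 0.11 (SE, n = 4 and 4; limma adjusted p = 0.708), and other Tbc1d4 probes gave 0.14 ± 0.08 and 0.10 ± 0.13 (SE). The difference of the main probe became 0.15 and 0.02 without saline 1 and saline 2, and 0.04, 0.14 and 0.04 without P. gingivalis 1, 2 and 3. Within an array, Tbc1d1 minus Tbc1d4 ran from -0.46 in saline 1 to 0.24 in saline 2 and from -0.70 in P. gingivalis 3 to 0.37 in P. gingivalis 2. The spread within each group was far wider than the difference between groups of -0.04 (exact permutation p = 0.886, 0.886 after adjustment over the 4 pairs).

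Txnip encodes thioredoxin-interacting protein, which binds thioredoxin and pulls GLUT1 and GLUT4 from the surface. The array carries probes at 2 places whose starts lie 1134 bases apart. The upstream one is shown because it gave the greatest difference among the 21 measured probes of the members. It lies at mm9 chr3:96364206-96364265 on the plus strand:
Txnip upstream probe: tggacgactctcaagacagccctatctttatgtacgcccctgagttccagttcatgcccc
The downstream probe, which stands for the gene, lies at mm9 chr3:96365340-96365399. Which exon or untranslated part either probe falls in was not worked out here.

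The Txnip downstream probe read 6.53, 6.68, 6.76 and 6.48 on the saline arrays and 7.25, 7.02, 6.89 and 6.95 on the P. gingivalis arrays. All 4 P. gingivalis arrays lay above all 4 saline arrays, with P. gingivalis 1 the highest. The difference was 0.42 ± 0.10 (SE, n = 4 and 4), 1.33-fold, with an unadjusted p of 0.00309 and an adjusted p of 0.0987 in limma. The exact permutation p of 0.0286 is the smallest that 70 assignments of 8 arrays can give. Red blood cell markers were higher in P. gingivalis in 8 of 8 genes, with overlapping mean deviations of -1.53 to 0.81 in saline and -0.08 to 0.76 in P. gingivalis. Slow-fibre markers were higher in 7 of 8 genes (-0.13 to 0.02 in saline, 0.02 to 0.09 in P. gingivalis). None of these markers was at 0, and their part in the Txnip values, like that of the neutrophil markers given above, was not tested.

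The Txnip upstream probe read 2.27, 2.48, 2.69 and 2.28 on the saline arrays and 3.38, 3.04, 3.02 and 3.25 on the P. gingivalis arrays. Again the groups did not overlap and P. gingivalis 1 was the highest. The difference was 0.74 ± 0.12 (SE, n = 4 and 4), with an unadjusted p of 0.000347 and an adjusted p of 0.0602 in limma over 33748 probes. Of the 21 measured member probes, 3 had groups without overlap, the 2 of Txnip and 1 of Slc2a12, beside 14.1% of all kept probes. None of the 21 passed an adjusted p of 0.05, beside 0.163% of all kept probes.

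The difference kept its sign in all 18 alternatives for the Txnip gene, between 0.34 and 0.59, with adjusted p from 0.0404 to 0.273 in limma. It passed the threshold in 3 of them, without a filter on dim probes, with trended and robust variance, and in the rebuilt processing of the deposited table. The upstream probe ran from 0.67 to 0.83 in 16 alternatives, with adjusted p from 0.0182 to 0.240, and passed in 5. In the authors' deposited table, with its groups exchanged, Txnip stands at -0.59 with an adjusted p of 0.0447. That table and its rebuilt processing average probes of the same transcript, so their Txnip value covers both probes and not the downstream one alone. Of the member rows that table lists, only the Txnip row has an adjusted p under 0.05, beside 1.53% of its 28250 rows.

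**Figure D2:**
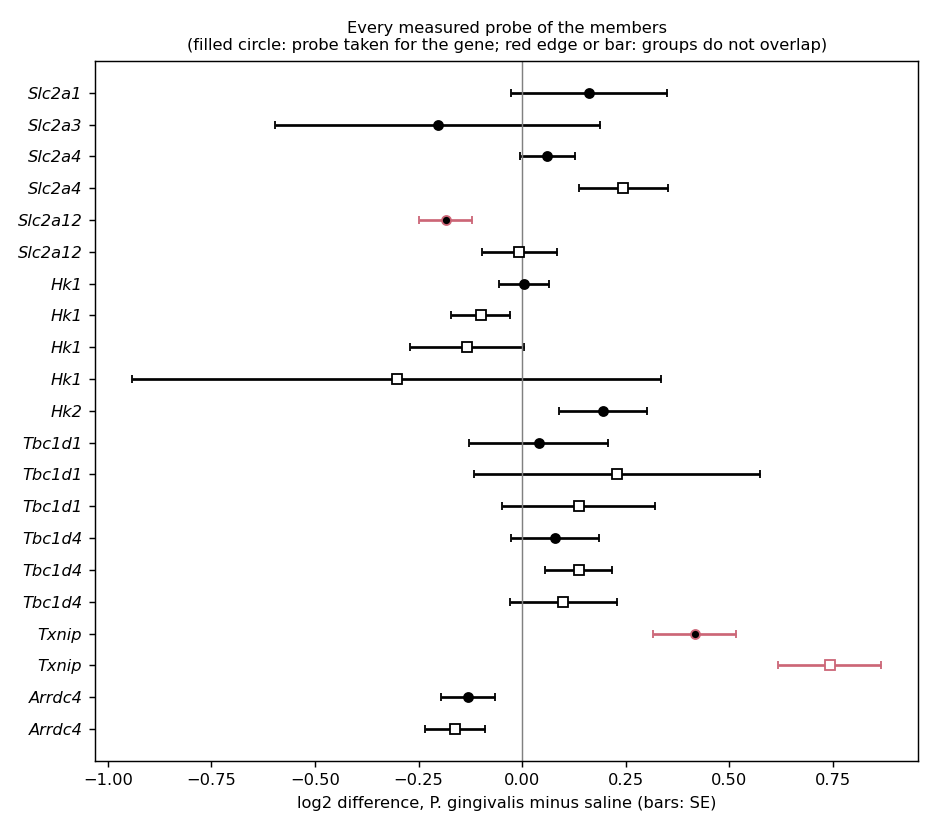
Difference of each of the 21 measured probes of the members, P. gingivalis minus saline in log2 units, with bars for SE (n = 4 and 4). Filled circles are the probes that stand for the genes, open squares the other probes, and red marks the 3 probes without overlap between groups, the pair of Txnip at 0.42 and 0.74 and 1 of Slc2a12 at -0.18.

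Arrdc4 is the alpha-arrestin closest to Txnip in its known control by glucose. Its main probe (mm9 chr7:75882043-75882102, minus strand) read -0.65, -0.54, -0.55 and -0.59 on the saline arrays and -0.79, -0.76, -0.72 and -0.58 on the P. gingivalis arrays. P. gingivalis 4 lay inside the saline range and the other P. gingivalis arrays lay below it. The difference was -0.13 ± 0.06 (SE, n = 4 and 4; limma adjusted p = 0.295). It was -0.07 with normexp (adjusted p = 0.426) and -0.04 in the rebuilt processing (adjusted p = 0.712). A second Arrdc4 probe (mm9 chr7:75886496-75886555) read -1.70, -1.66, -1.84 and -1.69 in saline and -2.01, -1.78, -1.84 and -1.90 in P. gingivalis. It overlapped as well, with a difference of -0.16 ± 0.07 (SE; limma adjusted p = 0.256).

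The levels of Txnip and Arrdc4 on each array were subtracted from each other, which removes the scaling of the array and shows unequal change. Txnip minus Arrdc4 was 7.18, 7.22, 7.31 and 7.06 on the saline arrays and 8.05, 7.77, 7.61 and 7.53 on the P. gingivalis arrays, where only the change between arrays can be read. The groups did not overlap. The difference between groups was 0.55 (exact permutation p = 0.0286, the smallest possible), and 0.114 after Benjamini-Hochberg adjustment over the 4 pairs of related members, so it failed the correction. It ran from 0.44 to 0.72 in 17 alternatives. The remaining pair, Slc2a4 minus Slc2a1, differed by -0.10 (exact permutation p = 0.543, adjusted 0.724).

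**Figure D3:**
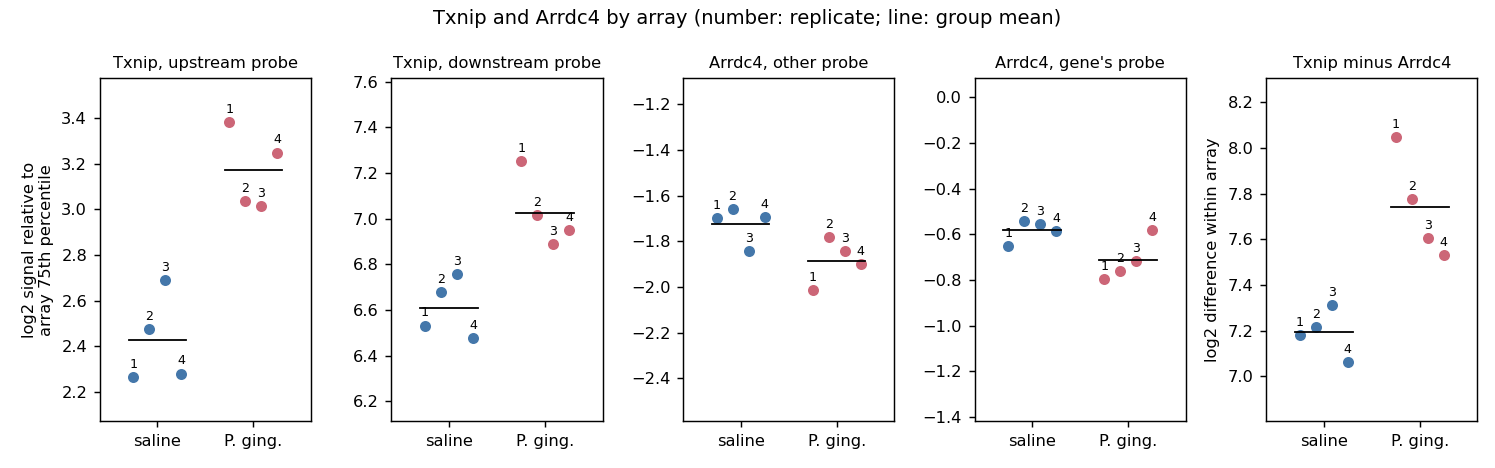
Levels of both Txnip probes and both Arrdc4 probes, in log2 signal relative to the array's 75th percentile, and the within-array difference of the main probes, by array; numbers are replicates and lines are group means. Both Txnip probes and the within-array difference separate the groups, with P. gingivalis 1 the highest, while both Arrdc4 probes overlap.

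The promoters of Txnip and Arrdc4 are shown because these genes are known as joint targets of MondoA and ChREBP while their differences here had opposite signs. Each is the 250 bases before the annotated start, on the gene's strand, from RefSeq, build GRCm38.p6 (chr3:96557707-96557956, plus strand, and chr7:68749239-68749488, minus strand). Capitals mark the carbohydrate response pattern in Txnip and the E-box in Arrdc4:
Txnip promoter: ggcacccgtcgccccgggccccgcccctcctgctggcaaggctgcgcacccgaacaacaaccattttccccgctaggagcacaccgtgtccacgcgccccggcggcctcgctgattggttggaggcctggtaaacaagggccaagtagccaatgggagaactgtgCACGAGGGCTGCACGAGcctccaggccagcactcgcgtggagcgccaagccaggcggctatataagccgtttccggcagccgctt
Arrdc4 promoter: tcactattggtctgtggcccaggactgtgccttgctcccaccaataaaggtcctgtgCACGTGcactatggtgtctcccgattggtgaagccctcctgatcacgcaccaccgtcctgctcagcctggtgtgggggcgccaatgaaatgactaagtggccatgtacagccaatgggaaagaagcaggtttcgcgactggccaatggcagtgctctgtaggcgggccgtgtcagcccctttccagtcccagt
The motifs were searched on both strands of the 250 bases in 32851 promoters, and 8 of the 10 members had a promoter there. The carbohydrate response pattern, a pair of E-box-like letters searched as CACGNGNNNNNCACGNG, was in 0.0457% of all promoters (15) and in 1 member, Txnip, from -85 to -69. The E-box CACGTG was in 6.02% of all promoters and in 1 member, Arrdc4, from -193 to -188. The CCAAT box was in 33.8% of all promoters and in 3 members, Arrdc4, Hk2 and Txnip. TATAA was in 22.8% of all promoters and in 1 member, Txnip, from -25 to -21. None of these matches overlapped another motif in Txnip or Arrdc4.

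Across the 8 arrays, 45 pairs of members were compared, and none passed Benjamini-Hochberg adjustment. The highest Pearson correlation was between Slc2a4 and Hk2, both insulin-regulated genes of glucose uptake (Pearson r = 0.73, exact permutation p = 0.0377, adjusted 0.508; Spearman rho = 0.55, exact permutation p = 0.171, adjusted 0.590). It was 0.68 without saline 2 and saline 3, the arrays farthest from the median of Slc2a4, and 0.67 over deviations from the group means, with 0.84 in saline and 0.24 in P. gingivalis. The highest Spearman correlation was between Slc2a3 and Tbc1d1 (rho = 0.76, exact permutation p = 0.0368, adjusted 0.590; r = 0.51, exact permutation p = 0.197, adjusted 0.590), with r = 0.69 without saline 2 and P. gingivalis 3 and 0.54 within groups. Txnip correlated with Slc2a12 at r = -0.70 (exact permutation p = 0.0533, adjusted 0.508; rho = -0.67, exact permutation p = 0.0831, adjusted 0.590) and r was -0.65 without saline 1 and P. gingivalis 3. Over deviations from the group means this correlation was 0.02, so it did not hold within groups. Txnip and Arrdc4 correlated at r = -0.69 (exact permutation p = 0.0612, adjusted 0.508; rho = -0.57, exact permutation p = 0.151, adjusted 0.590), with -0.46 without P. gingivalis 1 and saline 4. Within groups it was 0.67 over the saline arrays and -0.62 over the P. gingivalis arrays, of opposite sign.

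Around the members, 6 lists of genes that work with them held 82 measured genes, and 0 passed an adjusted p of 0.05 in limma (background 0.117%). At an unadjusted p under 0.05 there were 12 higher and 4 lower, beside 10% and 9.68% of all genes. Of the other sugar carriers and hexokinases, 8 of 13 were measured, with 0 at an unadjusted p under 0.05, 7 below 0 and a median of -0.23. That median ran from -0.29 to -0.04 in the alternatives, nearest 0 in the rebuilt processing. It was -0.10 with quantile normalization, and -0.15, -0.13 and -0.13 without saline 2, saline 4 and P. gingivalis 2. The count below 0 was 5 with median centring. In that list Slc2a10, an intracellular carrier, stood at -0.26 ± 0.15 (SE; limma adjusted p = 0.376) and Hk3, the hexokinase of myeloid cells, at -0.42 ± 0.30 (SE; adjusted p = 0.468). Slc2a10 became -0.12 without P. gingivalis 2. Hk3 became -0.75 (limma adjusted p = 0.0602) without saline 3, -0.27 without saline 4 and -0.19 in the rebuilt processing. Hk3 sat beside neutrophil markers that were all lower, with the ranges given above, and their part in it was not tested.

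In the list of GLUT4 vesicle traffic and fusion all 23 genes were measured, 13 above 0 and 10 below, with a median of 0.04. At an unadjusted p under 0.05 were 5 higher and 1 lower, beside 10% and 9.68% of all genes. Groups without overlap were found in 4 higher and 2 lower genes of this list, beside 7.34% and 6.10% of all genes. Rala, the GTPase that ties GLUT4 vesicles to the exocyst, read 2.87, 2.96, 2.97 and 2.97 in saline and 3.14, 3.13, 3.16 and 3.16 in P. gingivalis. Its groups did not overlap, and the difference was 0.20 ± 0.05 (SE; limma adjusted p = 0.101). Rab14, an endosomal Rab acted on by TBC1D4, read 4.52, 4.47, 4.48 and 4.48 in saline and 4.38, 4.24, 4.26 and 4.14 in P. gingivalis. These groups did not overlap either, with a difference of -0.23 ± 0.06 (SE; limma adjusted p = 0.114) that turned to 0.05 with the mean of its kept probes.

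Of the thioredoxin, alpha-arrestin and MondoA partners 13 of 14 were measured, 6 above 0 and 7 below, with a median of -0.07 (0.0038 in the rebuilt processing, -0.0075 without saline 1 and -0.01 without P. gingivalis 4) and with 3 higher and 1 lower at an unadjusted p under 0.05. Arrdc3, a further alpha-arrestin, read -0.18, 0.39, 0.26 and 0.42 in saline and 0.82, 0.70, 0.67 and 1.14 in P. gingivalis. The groups did not overlap, and the difference was 0.61 ± 0.16 (SE, n = 4 and 4; limma adjusted p = 0.111). It fell to 0.38 with the mean of its kept probes (limma adjusted p = 0.379). Mlx, the DNA-binding partner of MondoA and ChREBP, stood at 0.17 ± 0.06 (SE; adjusted p = 0.175), also without overlap. In this list 2 higher genes and 2 lower ones, Nedd4l at -0.15 and Txn1 at -0.11, had groups without overlap. The shares over all genes were 7.34% higher and 6.10% lower. For an unadjusted p under 0.05 the shares over all genes were 10% higher and 9.68% lower.

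The transcription factors of Slc2a4 had 13 of 14 measured, 8 above 0 and 5 below, with a median of 0.06 and with 2 higher and 0 lower at an unadjusted p under 0.05. Klf15, a glucocorticoid-induced activator of Slc2a4, stood at 0.39 ± 0.11 (SE; limma adjusted p = 0.130) and Hdac4, a repressor acting through MEF2, at 0.32 ± 0.12 (SE; adjusted p = 0.214). The kinases acting on Tbc1d1 and Tbc1d4 were all 14 measured, 9 above 0 and 5 below, with a median of 0.03 (-0.0019 without saline 1) and with 1 higher and 1 lower at an unadjusted p under 0.05. These were Pik3r1, a regulatory subunit of phosphoinositide 3-kinase, at 0.33 ± 0.13 (SE; adjusted p = 0.207), and Prkag2, an AMP-activated kinase subunit, at -0.29 ± 0.11 (SE; adjusted p = 0.201). Over all genes, 10% were higher and 9.68% lower at an unadjusted p under 0.05, the background for each list in this paragraph. Among the fates of glucose 6-phosphate all 11 genes were measured, 8 above 0 and 3 below, with a median of 0.09. Pfkm, muscle phosphofructokinase, stood at 0.23 ± 0.07 (SE; adjusted p = 0.156) and Gfpt2, of the hexosamine route, at -0.48 ± 0.21 (SE; adjusted p = 0.249), the only genes of that list with an unadjusted p under 0.05.

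**Figure D4:**
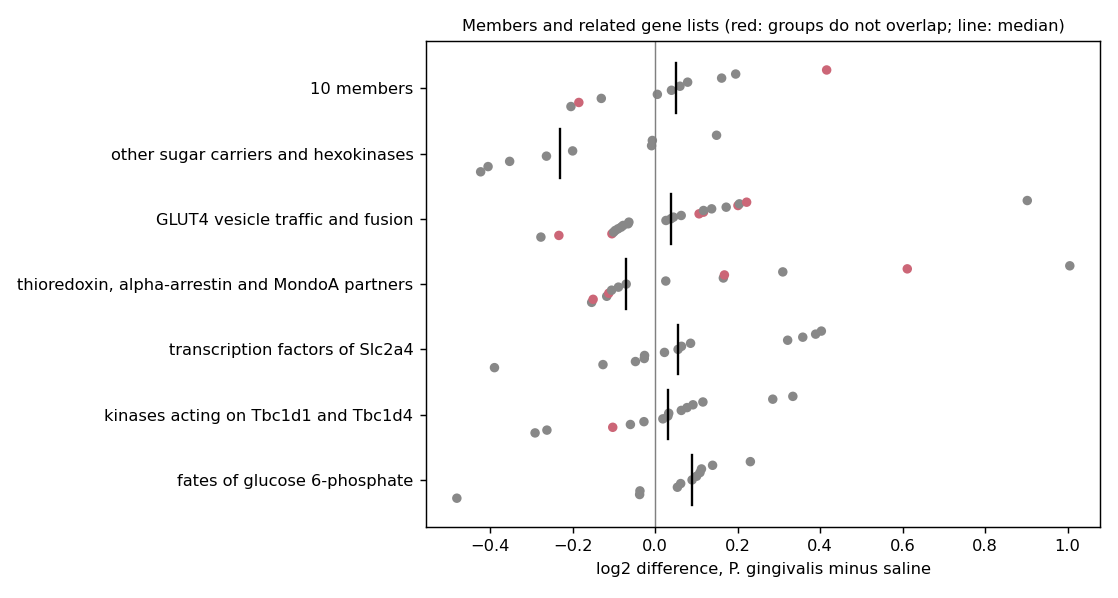
Log2 difference, P. gingivalis minus saline, of each of the 10 members and of each measured gene in the 6 lists, 1 point per gene, with vertical lines for medians. Red points are genes whose groups do not overlap; medians lie between -0.23 and 0.09, and no point passed an adjusted p of 0.05.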

How the data were processed

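RNA from 8 soleus samples was measured on 1-colour Agilent arrays, with 4 samples in each group. The deposited values are spot intensity readings. Per the file headers they came from Agilent Feature Extraction 11.0.1.1 (11.1 in the submitters' processing notes), were already background-subtracted, and carry probe positions in build mm9. Each array's processed signal was converted to log2 and its own 75th percentile over non-control spots was subtracted. Control spots and outlier flags were left out, spots of 1 probe were averaged, and 33748 of 56605 probes passed a filter that asked for a signal well above background on 4 arrays or more. A gene is its kept probe of highest mean signal, which left 22271 genes.

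The comparison used limma 3.58.1 (R 4.3.3; lmFit, then eBayes; two-sided; no covariate), adjusted by Benjamini-Hochberg over the whole table. Further probes of a member come from a limma fit over all kept probes. On simulated data over 22271 genes, the fit found 46% of changes of 0.5 (log2), 68% of 1, 88% of 2 and 96% of 3. It made 14 false calls. The simulation drew independent noise with saline SDs shuffled among genes and changed few genes, so these shares need not hold for the real arrays. Differences within pairs of related genes and correlations were tested by exact permutation.

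The members, the lists, the markers and the tests were chosen with earlier results of these data known. Named genes are all members and, of each list, the 2 measured genes of smallest unadjusted p. RefSeq names of assembly GRCm38.p6 were found for 32989 probes by accession, 10228 by symbol and 519 by older symbol, and 12869 carry the name given in the files. Same-numbered arrays deviated together at r = 0.06, -0.06, -0.04 and 0.23, so the replicate numbers were not taken to pair the samples.

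A deposited table gives log2 values with p-values by the authors in 28250 rows. The t and B columns, each a score in the deposited table, played no part. Normexp on median signals (offset 16), quantile normalization and a limit of 1.1 times the negative controls' 95th percentile, passed on 4 arrays or more, gave the same values within 1e-06, although no header names these steps. Probes designed on the same transcript were also averaged in these steps. All 8 columns then matched the same-numbered array of the opposite group, and 0 matched their own. Alternatives covered background correction, scaling, the filter, the probe rule, the variance model, the replicate number, the rebuilt processing and arrays left out.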

Additional observations from a re-analysis of the deposited data

Results flagged for a closer look

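The check covered 74 groups of 4 arrays, in the members' probes, the named list genes and the differences within pairs of members. The pair differences are built from members already counted. In 4 groups, 1 array lay farther from the others than Dixon's 95% limit. Chance alone marks about 1 group in 20. Slc2a3 in saline 2 read -1.82, against -3.50 to -3.45 on the other saline arrays. Slc2a12 in P. gingivalis 2 read 0.22, against 0.11 to 0.12 on the others of its group. The Hk1 junction probe in saline 2 read -2.16, against -5.15 to -4.69 on the other saline arrays. Rala in saline 1 read 2.87, against 2.96 to 2.97 on the others of its group.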

How the results depend on the processing

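The count of genes past an adjusted p of 0.05 in limma moved from 26 to 424 with normexp, 197 with quantile normalization, 91 with median centring, 5160 without a filter on dim probes (where the median of all genes moved to -0.10), 261 with probes above background on all 8 arrays, 9 with the mean of a gene's probes, 559 with trended and robust variance and 362 in the rebuilt processing. It was 0 with the replicate block (4438 genes at an unadjusted p under 0.05) and 0 without saline 1 and P. gingivalis 3 (3077 such genes), and 2 to 7 with 1 array left out. The cause was not tested, and leaving out arrays changed both their number and which arrays remained. The replicate block changed no call of a member gene or list gene, gave Txnip an adjusted p of 0.181, and 4 of the 8 arrays correlated best with their own number.

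Signs turned mostly for values close to 0. With 1 array left out in turn, Slc2a3 ran from -0.35 to 0.21, Hk1 from -0.022 to 0.035, Tbc1d1 from -0.056 to 0.204, Slc2a4 minus Slc2a1 from -0.24 to 0.0028 and Tbc1d1 minus Tbc1d4 from -0.20 to 0.16, and the turns of genes and pairs came as follows. Hk1 became -0.0096 with quantile normalization and -0.13 with the mean of probes, and -0.013, -0.00015, -0.022 and -0.0011 without saline 2, saline 3, P. gingivalis 1 and P. gingivalis 4. Tbc1d1 became -0.02, -0.056 and -0.02 without saline 1, P. gingivalis 2 and P. gingivalis 4. Tbc1d1 minus Tbc1d4 became 0.030 with the mean of probes, 0.14 in the rebuilt processing, 0.027 without saline 1 and P. gingivalis 3, 0.06 without saline 2 and 0.16 without P. gingivalis 3. The rebuilt processing averages probes of the same transcript, which switched Tbc1d1 to another of its probes (0.22) and made Tbc1d4 a mean of probes. Slc2a3 became 0.21 without saline 2, Slc2a4 minus Slc2a1 0.0028 without P. gingivalis 2, and Rab14 0.053 with the mean of probes. Txnip minus Arrdc4 could not pass under the replicate block, where the smallest possible exact p was 0.125. The same held without saline 1 and P. gingivalis 3, where it was 0.1. With 1 array left out, the exact permutation p of Txnip minus Arrdc4 was 0.0286 each time. That is the smallest possible there, before adjustment over the pairs. It had to follow, because the groups do not overlap with all arrays in, so it is no separate check. Rala passed with trended and robust variance (adjusted p = 0.0471). A slide block was not run because all arrays lay on 1 slide. Pair differences have no variance model, so trended variance gave them no value. Over the alternatives the list medians ran from -0.29 to -0.04 (other sugar carriers), 0.01 to 0.06 (vesicle traffic), -0.09 to 0.0038 (thioredoxin and arrestin partners), 0.02 to 0.13 (transcription factors), -0.0019 to 0.07 (kinases) and 0.04 to 0.11 (glucose 6-phosphate), so the sign turned once each for the partners (rebuilt processing) and the kinases (without saline 1). The number of arrays limits the precision.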
